A study of Rattus norvegicus with 9 samples.

Results

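The genes described here encode the subunits of the mitochondrial respiratory chain and ATP synthase. They were taken by symbol from the 31125 rows of a gene count table of rat femurs. Of 114 rows with a matching symbol, 108 were annotated as protein coding, and keeping the row with the highest count for each symbol left 105 genes. Of these, 13 are encoded by mitochondrial DNA and 92 by nuclear chromosomes: 43 of complex I, 4 of complex II, 9 of complex III, 18 of complex IV and 18 of complex V. The choice by symbol also took 11 rows with a pseudogene symbol (ending in -ps) and Atp5if1, an inhibitor of ATP synthase and not a subunit. Ndufa4 and Ndufa4l2 were placed in complex IV, where the Ndufa4 protein sits, although their names are those of complex I.

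Bulk RNA of whole femurs from male rats was sequenced on day 7 in 3 groups of 3 libraries. GMTT femurs had an injury of the distal femoral growth plate and received the GMTT hydrogel, which by the title combines GelMA (methacrylated gelatin), TPGS (a derivative of vitamin E) and tea polyphenols. GPI femurs had the same growth plate injury without the hydrogel, and Sham femurs came from rats with sham surgery. The design text gives 3 specimens per group, and calls the femurs of every group intact. It does not say whether tissue was pooled, and names neither the strain, the age nor how much muscle and marrow was left on the bone, so a p-value here reflects only how far single libraries of a group lie apart.

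The respiratory chain passes electrons from NADH through complex I and from succinate through complex II to ubiquinone, then through complex III and cytochrome c to complex IV, which reduces oxygen. Complexes I, III and IV pump protons, and complex V, the ATP synthase, uses the gradient to make ATP. Mitochondrial DNA encodes the membrane core of complexes I, III, IV and V, while complex II is wholly nuclear, so the chain needs transcripts from both genomes. Some complex IV subunits have isoforms of striated muscle, such as Cox6a2 and Cox7a1, beside the broadly expressed Cox6a1 and Cox7a2. Muscle fibres are rich in mitochondria whereas mature red cells have none.

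The libraries held 15927429 to 19715997 counts, and counts of libraries within a group correlated at 0.991 to 0.995 across genes. The make-up of the counts by cell type differed between groups. The 24 skeletal muscle genes took 3.42% to 3.64% of counts in GMTT, 17.3% to 17.6% in GPI and 0.368% to 0.389% in Sham, and all 24 were detected in every group. The 15 erythroid genes took 4.59% to 5.00% in GMTT, 0.255% to 0.261% in GPI and 8.47% to 9.41% in Sham. The 15 neutrophil genes took 1.31% to 1.36% in GMTT, 0.000815% to 0.000933% in GPI and 1.08% to 1.16% in Sham, with no member of either list at 0 in any group. The 10 osteoblast and osteocyte genes were all detected at 1.39% to 1.52% in GMTT, 0.507% to 0.541% in GPI and 1.01% to 1.08% in Sham, against 0.0385% to 0.0412% in GMTT, 0.0202% to 0.0204% in GPI and 0.0255% to 0.0270% in Sham for the 10 chondrocyte genes, of which 8 passed the low-count filter and Cnmd was at 0 in GMTT and Sham. The part of these shares in the results below was not tested, and in bulk tissue fewer cells of a type and less RNA per cell cannot be told apart.

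In GPI femurs nearly all respiratory chain transcripts were higher than in Sham femurs. Of the 105 genes, 95 had enough counts to be tested, all 13 mitochondrial and 82 nuclear ones, and 93 were higher and 2 lower (edgeR's quasi-likelihood test, Benjamini-Hochberg adjusted p below 0.05 over 15936 genes). Among all genes tested 88.2% were called, 40.1% higher and 48.1% lower, and the median log2 fold change was 2.74 for the 95 genes and -0.19 for all genes. The mitochondrially encoded genes had a median of 3.91 and the nuclear ones 2.64. The 2 lower genes were Atp5if1 and Cox6a1. Over the same libraries the 24 skeletal muscle genes had a median of 6.33, and their part in the difference was not tested. These values depend on the scaling: TMM factors were 0.600 to 0.604 in GPI and 1.28 to 1.30 in the other libraries, and with library sizes alone the medians were 1.64 for the 95 genes and -1.28 for all genes, with 90 of the 95 higher and 3 lower. Of all genes, 3521 were then higher and 11210 lower, in place of 6387 and 7662.

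In GMTT femurs nearly the whole set was lower than in GPI femurs, with 93 of 95 genes lower and the same 2 genes, Atp5if1 and Cox6a1, higher (edgeR). Among all genes 85.9% were called, 40.2% lower and 45.7% higher. The median log2 fold change was -3.24 for the mitochondrial and -2.34 for the nuclear genes, against 0.12 for all genes. The muscle genes had a median of -3.30. With library sizes alone 91 of the 95 were lower, with a median of -1.36 against 1.22 for all genes.

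Between GMTT and Sham femurs the differences were smaller at the median than in the comparisons with GPI. Of the 95 genes, 71 were higher, 3 lower and 21 not called (edgeR), where 57.8% of all genes were called, 29.5% higher and 28.3% lower. All 13 mitochondrial genes were higher, with a median log2 fold change of 0.67 (the call of Mt-nd3 ended without Sham library 3, at 0.51), and 58 of 82 nuclear genes were, with a median of 0.34. The muscle genes had a median of 3.18, and their part was not tested. The 3 lower genes were Atp5if1 (-0.64), Cox6a1 (-0.30) and Ndufb9 (-0.12), an accessory subunit of complex I. The Ndufb9 call, picked out after its values were seen, had an adjusted p of 0.0353 in edgeR and ended under most of the alternatives tried, among them each fit without 1 GMTT or Sham library. The 3 contrasts share their libraries, so they are not independent of each other.

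**Figure D1:**
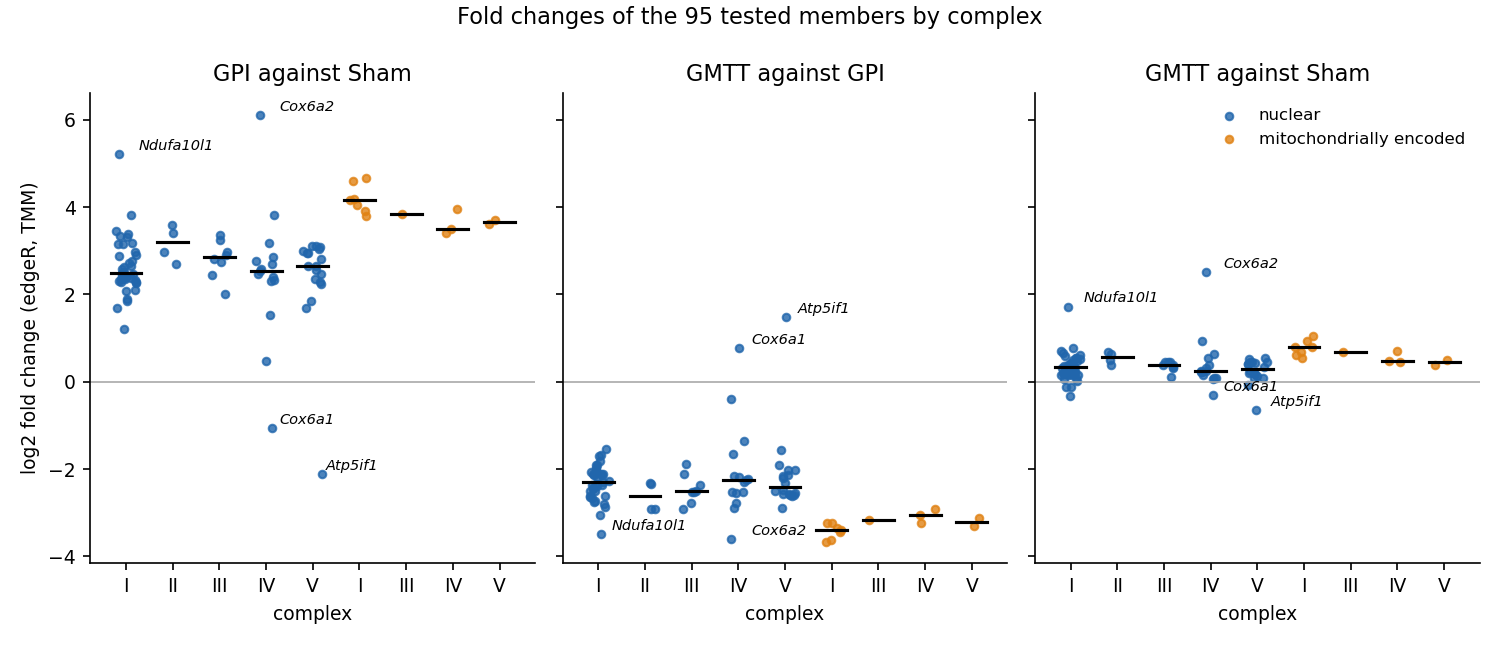
Log2 fold change (edgeR with TMM scaling) of each tested gene, with 1 point per gene, grouped by complex and by genome of origin, for GPI over Sham, GMTT over GPI and GMTT over Sham; black lines are medians. Mitochondrially encoded genes lie above most nuclear genes in GPI against Sham, and Cox6a1 and Atp5if1 lie on the other side of 0 from the rest in the panels that include GPI.

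The genes that mark the chain followed this order in every library. Mt-co1 (chromosome MT, 5323 to 6867, plus strand, build mRatBN7.2), the catalytic subunit of complex IV, had 10106, 10379.9 and 11119.8 FPKM in the GMTT libraries, 99641, 95574 and 102433 FPKM in the GPI libraries and 6287, 6569 and 6059 FPKM in the Sham libraries. The GPI libraries stood far above the others and the groups did not overlap. Its log2 fold change was 3.95 (SE 0.05) in GPI against Sham, -3.24 (SE 0.05) in GMTT against GPI and 0.71 (SE 0.05) in GMTT against Sham, with edgeR adjusted p of 9.76e-35, 1.77e-32 and 1.38e-14. Ndufs1 (chromosome 9, 64546225 to 64579893, minus strand), the largest iron-sulfur core subunit of complex I, had 55.1, 56.7 and 57.5 FPKM in the GMTT libraries, 473, 474 and 466 FPKM in the GPI libraries and 32.4, 32.8 and 32.2 FPKM in the Sham libraries. GPI was again highest, GMTT intermediate and Sham lowest without overlap, at log2 fold changes of 3.83 (SE 0.05), -3.06 (SE 0.04) and 0.77 (SE 0.04) for the same 3 comparisons. Sdha (chromosome 1, 28940164 to 28961535, plus strand), the flavoprotein of complex II, had 53.2, 52.1 and 50.8 FPKM in the GMTT libraries, 389, 405 and 388 FPKM in the GPI libraries and 36.3, 34.5 and 37.8 FPKM in the Sham libraries. Its log2 fold changes were 3.41 (SE 0.05), -2.92 (SE 0.05) and 0.49 (SE 0.05), and its groups did not overlap either.

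**Figure D2:**
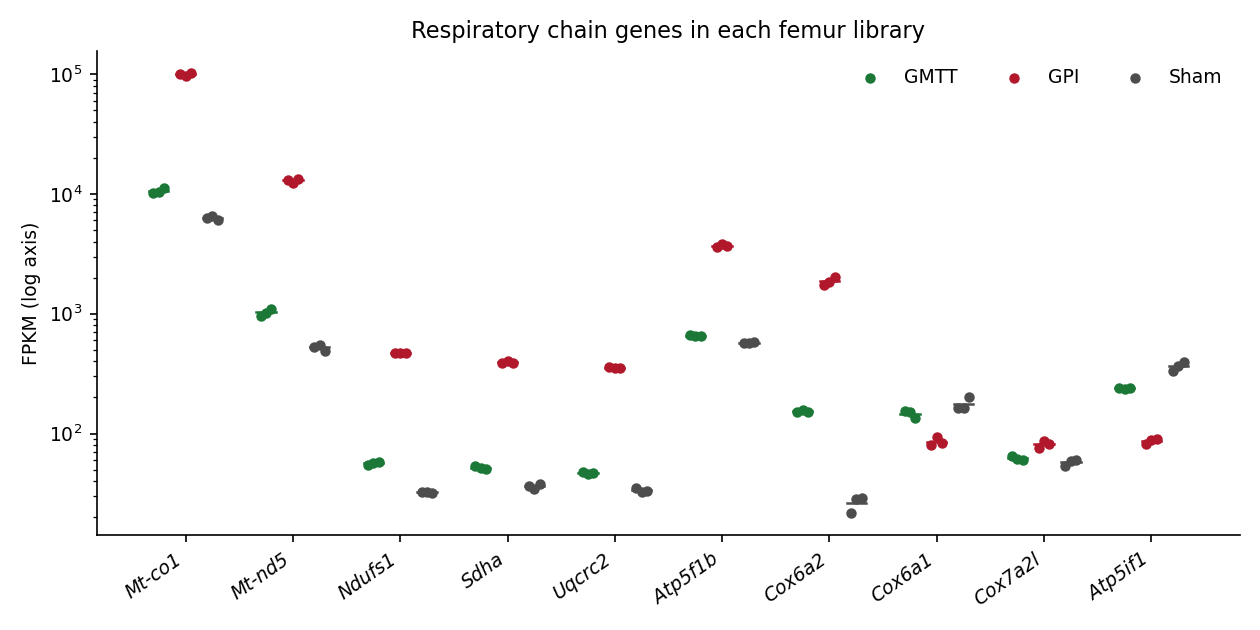
FPKM on a log axis in each of the 9 libraries for 10 genes, with 1 point per library and a bar at the mean of the 3 libraries of GMTT, GPI and Sham. Mt-co1, Mt-nd5, Ndufs1, Sdha, Uqcrc2, Atp5f1b and Cox6a2 are highest in GPI, while Cox6a1 and Atp5if1 are lowest there.

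Mitochondrially encoded genes had larger fold changes at the median than nuclear genes of the same complexes. In GPI against Sham the 7 complex I genes had a median log2 fold change of 4.16, Mt-cyb of complex III 3.84, the 3 complex IV genes 3.50 and the 2 complex V genes 3.65. The largest were Mt-nd4l at 4.67 (SE 0.15) and Mt-nd5 at 4.60 (SE 0.06), both proton-pumping arm subunits of complex I, and the smallest were Mt-co2 at 3.41 (SE 0.06) and Mt-co3 at 3.50 (SE 0.05). The models of Mt-nd4l and Mt-nd4 overlap on 1 strand, as do those of Mt-atp8, Mt-atp6 and Mt-co3, and Mt-nd5 overlaps Mt-nd6 on the other strand, so reads there could have been divided between neighbours. Mt-nd5 had 963, 1017 and 1096 FPKM in the GMTT libraries, 13128, 12434 and 13277 FPKM in the GPI libraries and 529.9, 549 and 491 FPKM in the Sham libraries. Every GPI library was far above the others, every GMTT library lay above every Sham library, and the groups did not overlap. In GMTT against GPI the 13 genes fell by between 2.92 and 3.66 on the log2 scale, and in GMTT against Sham they were higher by 0.39 (Mt-atp8) to 1.05 (Mt-nd4l).

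Within a library, the summed FPKM of the 13 mitochondrial genes was 7.02 ± 0.593 times that of the 92 nuclear genes in GMTT, 12.5 ± 0.714 times in GPI and 5.49 ± 0.496 times in Sham (SD, n = 3). A ratio taken within a library does not depend on the scaling between libraries. The log2 ratios were 2.70, 2.79 and 2.94 in GMTT, 3.69, 3.55 and 3.69 in GPI and 2.51, 2.55 and 2.30 in Sham, and no 2 groups overlapped. They differed by 1.19 (SE 0.09) in GPI against Sham, by -0.83 (SE 0.08) in GMTT against GPI and by 0.35 (SE 0.10) in GMTT against Sham, each with p = 0.1 in a 2-sided exact permutation test, the smallest p that 3 against 3 libraries allow. By complex, the GPI-over-Sham difference of this log2 ratio was 1.43 (SE 0.11) for complex I, 1.02 (SE 0.12) for complex III, 0.98 (SE 0.09) for complex IV and 1.17 (SE 0.09) for complex V. Among the mitochondrial genes themselves, the 7 Mt-nd genes of complex I took a larger part beside the other 6 in GPI than in Sham. Their summed FPKM over that of the other 6 stood at log2 ratios of -1.49, -1.44 and -1.41 in GMTT, -1.16, -1.19 and -1.16 in GPI and -1.65, -1.63 and -1.66 in Sham. The groups did not overlap in any of these ratios, and each had an exact permutation p of 0.1.

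Mitochondrial messenger RNA made up 5.73% to 6.41% of all counts in GMTT, 25.4% to 26.9% in GPI and 3.65% to 4.02% in Sham. The 92 nuclear genes made up 1.00% to 1.05% in GMTT, 2.52% to 2.68% in GPI and 0.802% to 0.864% in Sham. The 2 mitochondrial ribosomal RNA rows held 0.110% to 0.134% in GMTT, 0.303% to 0.329% in GPI and 0.141% to 0.168% in Sham, in libraries that were selected for poly(A) per the labels' protocols. The mitochondrial messengers and ribosomal rows were thus both highest in GPI, but GMTT was above Sham for the messengers and below it for the ribosomal rows.

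**Figure D3:**
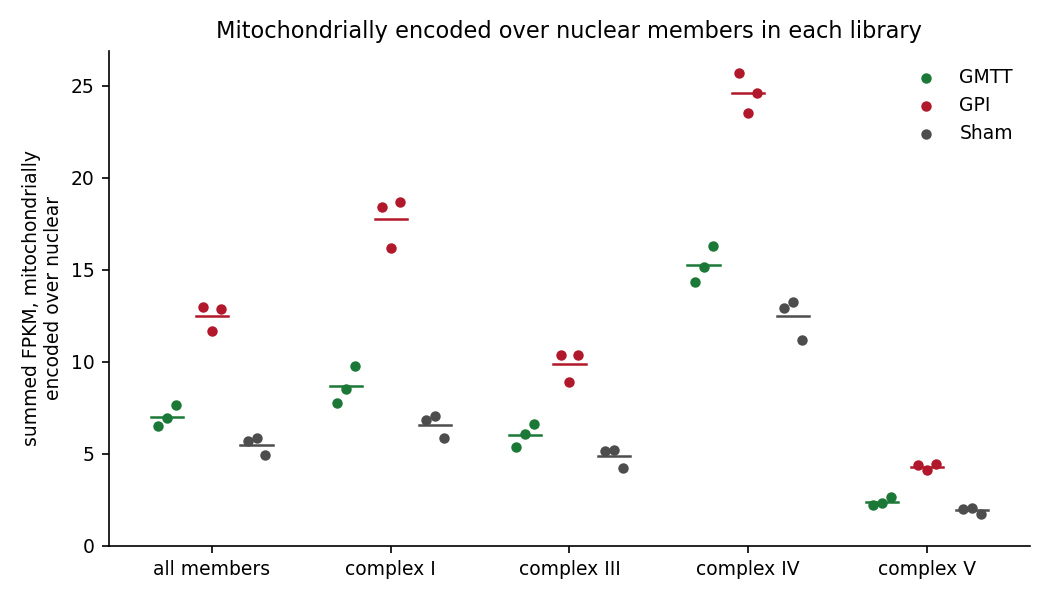
Summed FPKM of mitochondrially encoded genes over that of nuclear genes, for all members and within complexes I, III, IV and V, with 1 point per library and a bar at the mean of the 3 libraries. In each column the 3 GPI libraries lie highest, then GMTT, then Sham, with no overlap between groups.

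Complex I, the NADH dehydrogenase, had 37 of 43 nuclear genes tested, all higher in GPI than in Sham at a median log2 fold change of 2.50, and all lower in GMTT than in GPI at -2.29. Its 6 tested core subunits, among them the carriers of the flavin and the iron-sulfur clusters, had a median of 3.24 in GPI against Sham, and its 28 tested supernumerary subunits, which surround the core, 2.46. Summed FPKM of core over supernumerary genes stood at log2 ratios of -2.12, -2.06 and -2.04 in GMTT, -1.53, -1.57 and -1.59 in GPI and -2.30, -2.37 and -2.39 in Sham. GPI was highest and Sham lowest without overlap (exact permutation p = 0.1 for each pair of groups). Core subunits after Ndufs1 included Ndufv2, Ndufs3, Ndufv1, Ndufs7 and Ndufs8, which lay between 2.72 for Ndufs8 and 3.38 for Ndufv2.

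Ndufa10l1, a paralogue of the accessory subunit Ndufa10 by its symbol, had the largest log2 fold change of the complex I genes in GPI against Sham. It had 5.47, 5.88 and 5.49 FPKM in the GMTT libraries, 61.4, 67.3 and 61.1 FPKM in the GPI libraries and 1.36, 1.85 and 1.76 FPKM in the Sham libraries. Its log2 fold changes were 5.22 (SE 0.09) in GPI against Sham, -3.50 (SE 0.07) in GMTT against GPI and 1.72 (SE 0.11) in GMTT against Sham, against 2.97, -2.62 and 0.36 for Ndufa10. The log2 ratio of Ndufa10l1 to Ndufa10 was -1.81, -1.63 and -1.75 in GMTT, -0.87, -0.80 and -0.89 in GPI and -3.37, -2.95 and -3.02 in Sham, with no overlap (exact permutation p = 0.1). The 2 genes may share reads if their sequences are close, which the sources used here do not settle. At the other end, the accessory subunit Ndufa3 was at 1.21 (SE 0.17) in GPI against Sham, with 0.737, 0.793 and 0.809 FPKM in the GMTT libraries, 2.58, 2.01 and 2.21 FPKM in the GPI libraries and 1.05, 0.971 and 0.868 FPKM in the Sham libraries, and Ndufv3-ps1 at 1.68 (SE 0.27). Ndufa3 overlaps Tfpt on the other strand, and with library sizes alone its difference was 0.11 and not called.

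Complex II, succinate dehydrogenase, moved as a whole. Its catalytic pair Sdha and Sdhb had log2 fold changes of 3.41 and 3.58 (SE 0.05) in GPI against Sham, and the membrane anchors Sdhc and Sdhd 2.98 (SE 0.05) and 2.70 (SE 0.05). Sdhb, the iron-sulfur subunit, whose model overlaps Atp13a2 on the same strand, had 51.2, 49.6 and 45.6 FPKM in the GMTT libraries, 348, 386 and 362 FPKM in the GPI libraries and 29.9, 29.8 and 30.1 FPKM in the Sham libraries. The groups did not overlap, and all 4 genes were called in each of the 3 comparisons, between -2.32 (Sdhd) and -2.92 (Sdha) in GMTT against GPI and between 0.38 (Sdhd) and 0.68 (Sdhb) in GMTT against Sham.

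Complex III, the cytochrome bc1 complex, had 8 of 9 nuclear genes tested and all were higher in GPI than in Sham at a median of 2.86. The core protein Uqcrc2 (3.37, SE 0.05) and the Rieske iron-sulfur protein Uqcrfs1 (3.24, SE 0.05) moved most, and the hinge protein Uqcrh (2.01, SE 0.05) and the small subunit Uqcrq (2.44, SE 0.10) least. Uqcrc2 had 47.5, 46.2 and 46.7 FPKM in the GMTT libraries, 361, 353 and 351 FPKM in the GPI libraries and 35.3, 32.5 and 33.1 FPKM in the Sham libraries. Its groups did not overlap, and the same order held for Uqcrfs1, with 113 ± 3.77 FPKM in GMTT, 776 ± 20.2 in GPI and 80.5 ± 1.32 in Sham (SD, n = 3). In GMTT against Sham all 8 were called higher, from 0.12 (Uqcrh, edgeR adjusted p = 0.0439) to 0.46 (Cyc1, cytochrome c1). The call of Uqcrh in that comparison ended without any 1 of the GMTT libraries, without Sham library 1 or 2 and without GPI library 1 or 3, and that of Uqcrq without GMTT library 1 (0.31) and without Sham library 2 (0.29).

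Complex IV, cytochrome c oxidase, held the widest spread. Of 15 tested nuclear genes 14 were higher and 1 lower in GPI than in Sham, from -1.06 for Cox6a1 to 6.11 for Cox6a2. These are the liver-type and the striated-muscle isoform of the same subunit, VIa. Cox6a2 (chromosome 1, 182788528 to 182789274, minus strand) had 152, 157 and 150.2 FPKM in the GMTT libraries, 1722, 1856 and 2026 FPKM in the GPI libraries and 21.6, 28.7 and 28.7 FPKM in the Sham libraries. GPI stood above GMTT and GMTT above Sham, with no overlap, and its log2 fold changes were 6.11 (SE 0.08), -3.61 (SE 0.07) and 2.50 (SE 0.08) in GPI over Sham, GMTT over GPI and GMTT over Sham (edgeR adjusted p = 2.48e-29, 7.22e-26 and 1.56e-19). Cox6a1 (chromosome 12, 41261967 to 41265041, plus strand) had 154, 150.2 and 135 FPKM in the GMTT libraries, 80.8, 94.0 and 82.7 FPKM in the GPI libraries and 163, 163 and 202 FPKM in the Sham libraries. It ran in the reverse order, lowest in GPI and highest in Sham, without overlap, at -1.06 (SE 0.08), 0.77 (SE 0.08) and -0.30 (SE 0.08) (edgeR adjusted p = 3.61e-10, 6.67e-08 and 0.00245).

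The FPKM ratio of Cox6a2 to Cox6a1 was 1.05 ± 0.0624 in GMTT, 21.9 ± 2.43 in GPI and 0.150 ± 0.0232 in Sham (SD, n = 3). By FPKM the muscle isoform was thus the more abundant one in GPI, about level with its partner in GMTT and the minor one in Sham. The level in GMTT depends on the gene lengths used, 475 bases for Cox6a2 and 638 for Cox6a1. In counts the GMTT libraries held 1692, 1700 and 1636 for Cox6a2 and 2293, 2188 and 1970 for Cox6a1. The log2 ratio differed by 7.19 (SE 0.15) in GPI against Sham, -4.38 (SE 0.10) in GMTT against GPI and 2.81 (SE 0.13) in GMTT against Sham. Each had an exact permutation p of 0.1, or 0.129 after Benjamini-Hochberg adjustment over the 18 tests of 6 isoform pairs. Across the groups the share of skeletal muscle genes rose with this ratio and that of erythroid genes fell, and their part in it was not tested.

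Cox7a1, the striated-muscle isoform of subunit VIIa, was far rarer. It had only 11 to 127 counts per library, with 1.13, 0.524 and 0.809 FPKM in the GMTT libraries, 5.50, 6.35 and 6.59 FPKM in the GPI libraries and 0.314, 0.483 and 0.456 FPKM in the Sham libraries, and its model overlaps Capns1 on the other strand. It was highest in GPI, where its partner Cox7a2 was too, at 3.82 (SE 0.21) against 2.34 (SE 0.06) for Cox7a2. The log2 ratio of Cox7a1 to Cox7a2 was -7.26, -8.27 and -7.61 in GMTT, -7.12, -7.03 and -6.85 in GPI and -8.92, -8.16 and -8.52 in Sham. GPI did not overlap the other groups (exact permutation p = 0.1 for both comparisons with it), while GMTT and Sham overlapped (difference 0.81, SE 0.37, exact permutation p = 0.2). So the muscle isoform of subunit VIa outnumbered its partner in GPI, while that of subunit VIIa averaged only 0.00783 times its partner there by FPKM. That ratio depends on the gene lengths used, 1670 bases for Cox7a1 and 396 for Cox7a2. In counts the GPI libraries held 109, 127 and 114 for Cox7a1 and 3599, 3946 and 3112 for Cox7a2.

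Upstream sequence is shown for the muscle isoforms Cox6a2 and Cox7a1, for Cox7a2, the partner of Cox7a1, and for Atp5if1. Atp5if1 was lower in GPI than in Sham, and Cox6a1 is not among the genes shown. The windows are RefSeq's, from 250 bases before to 50 after the gene start in build GRCr8, written 5′ to 3′ on the gene's strand. Capitals mark matches on either strand to CAGCTG, a form of the E-box that myogenic factors bind, or to AGATAA, which factors of the red cell lineage bind, or to the motif of MEF2, a muscle factor, and none of the marked matches overlap.
Cox6a2, chr1:192219667-192219966, minus strand: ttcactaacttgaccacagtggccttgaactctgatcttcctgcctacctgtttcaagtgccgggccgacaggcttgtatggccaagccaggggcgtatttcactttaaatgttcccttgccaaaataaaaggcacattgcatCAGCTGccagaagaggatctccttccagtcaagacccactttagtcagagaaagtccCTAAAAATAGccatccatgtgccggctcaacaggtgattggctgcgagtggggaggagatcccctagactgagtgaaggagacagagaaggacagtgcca
Cox7a1, chr1:94568966-94569265, plus strand: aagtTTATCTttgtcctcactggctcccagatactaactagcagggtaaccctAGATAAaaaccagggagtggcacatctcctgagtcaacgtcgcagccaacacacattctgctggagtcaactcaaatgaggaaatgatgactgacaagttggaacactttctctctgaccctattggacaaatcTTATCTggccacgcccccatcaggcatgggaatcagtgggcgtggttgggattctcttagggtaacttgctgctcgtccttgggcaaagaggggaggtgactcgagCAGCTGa
Cox7a2, chr8:89601100-89601399, minus strand: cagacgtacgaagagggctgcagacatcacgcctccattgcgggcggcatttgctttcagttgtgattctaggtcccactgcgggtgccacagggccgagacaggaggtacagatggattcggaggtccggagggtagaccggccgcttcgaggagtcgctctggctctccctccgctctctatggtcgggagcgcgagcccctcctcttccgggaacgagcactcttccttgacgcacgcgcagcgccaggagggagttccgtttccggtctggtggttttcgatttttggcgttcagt
Atp5if1, chr5:150026628-150026927, minus strand: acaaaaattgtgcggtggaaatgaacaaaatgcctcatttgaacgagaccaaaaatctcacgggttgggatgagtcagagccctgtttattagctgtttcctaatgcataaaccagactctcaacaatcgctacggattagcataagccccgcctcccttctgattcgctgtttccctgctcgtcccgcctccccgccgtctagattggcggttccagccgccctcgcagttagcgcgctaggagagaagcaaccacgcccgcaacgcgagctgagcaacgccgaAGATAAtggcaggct

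The Cox6a2 window held CAGCTG starting at position -107 and a MEF2 match at -50, counted from the gene start. The Cox7a1 window held CAGCTG at 44 and AGATAA or its reverse complement TTATCT at -246, -197 and -63, the Atp5if1 window held AGATAA at 36, and the Cox7a2 window held none of these. Of the 92 nuclear genes 70 had a window. CAGCTG was in 15.7% of these 70 and in 15.2% of 21842 protein-coding windows, AGATAA in 12.9% and 10.2%, and the MEF2 motif in 1.43% (Cox6a2 alone) and 2.88%. The NRF1 motif, bound by a transcription factor of many respiratory genes and searched as GCGCA and GCGC with any 1 base between them, was in 18.6% of the 70 and 5.66% of all windows, and AAGGTCA, the motif of estrogen-related receptors, in 12.9% and 3.78%. A match describes letters only and says nothing of binding.

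Of the other complex IV pairs compared, none held a muscle isoform. The tissue isoforms Cox8b and Cox6b2 were also planned, but neither they nor Cox8a were among the members, so their pairs were not compared. Cox7a2l, which joins complexes III and IV into supercomplexes, had 64.9, 61.1 and 60.5 FPKM in the GMTT libraries, 76.4, 86.5 and 81.1 FPKM in the GPI libraries and 53.8, 59.0 and 59.7 FPKM in the Sham libraries, and was at 0.47 (SE 0.06) in GPI against Sham with TMM scaling but at -0.62 with library sizes alone. Its log2 ratio to Cox7a2 was -1.41, -1.41 and -1.39 in GMTT, -3.32, -3.26 and -3.23 in GPI and -1.50, -1.22 and -1.48 in Sham. GPI lay below the other groups without overlap, and GMTT and Sham overlapped. Cox4i2, the lung and hypoxia isoform of subunit IV, was at 1.52 (SE 0.21) in GPI against Sham and Cox4i1 at 2.39 (SE 0.05); with library sizes alone Cox4i2 was at 0.43 and not called. The log2 ratio of Cox4i2 to Cox4i1 differed by -0.86 (SE 0.20) in GPI against Sham and 0.80 (SE 0.22) in GMTT against GPI. Ndufa4l2, a hypoxia-induced paralogue, was at 2.30 (SE 0.19) and Ndufa4 at 3.17 (SE 0.05), and their log2 ratio differed by -0.86 (SE 0.20) in GPI against Sham and 1.12 (SE 0.22) in GMTT against GPI. For both pairs GPI lay below the other groups without overlap (exact permutation p = 0.1), so both rarer isoforms made up less of their pair there although both were higher than in Sham with TMM scaling, and GMTT and Sham overlapped. Cox6b1 was at 2.47 and Cox7b at 2.59 in GPI against Sham, close to the complex IV median of 2.53. Cox7b2 and Cox8c, isoforms best known from testis, had no count in any library.

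**Figure D4:**
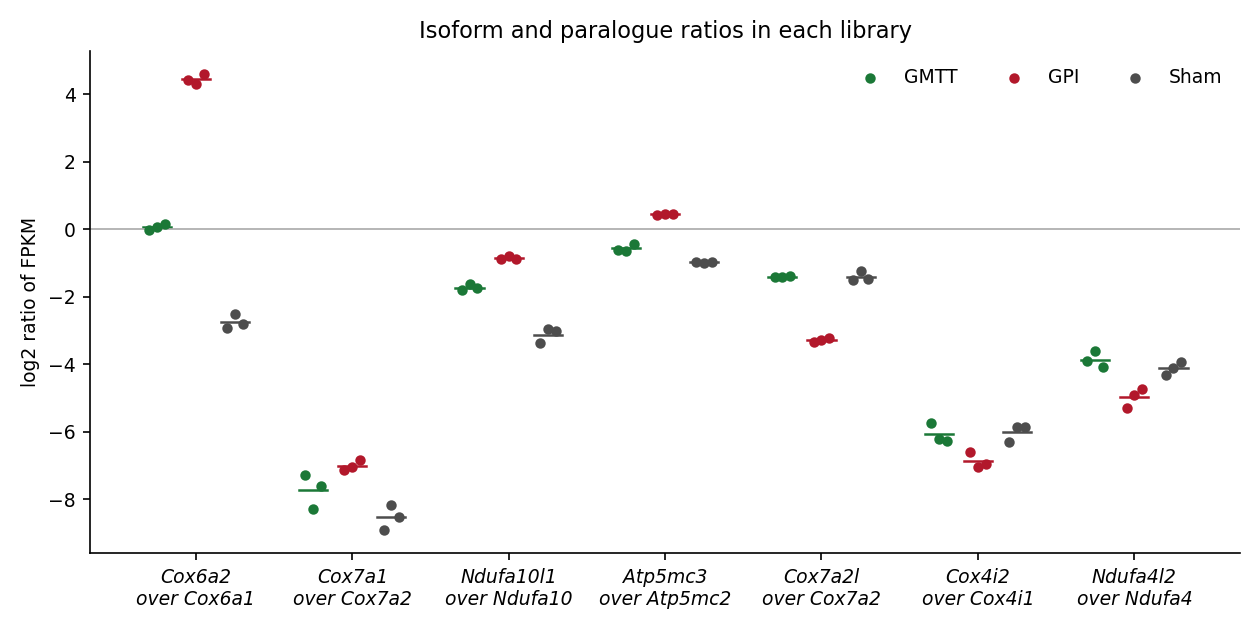
Log2 ratio of FPKM between isoforms or paralogues of a subunit, with 1 point per library and a bar at the mean of the 3 libraries of each group. Cox6a2 over Cox6a1 spans the widest range, from below -2 in Sham to above 4 in GPI, while Cox7a2l, Cox4i2 and Ndufa4l2 are lowest against their partners in GPI.

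Complex V held the most abundant nuclear transcript and the member that was lowest in GPI relative to Sham. Atp5f1b, the catalytic beta subunit, had 666, 650.0 and 656 FPKM in the GMTT libraries, 3616, 3784 and 3654 FPKM in the GPI libraries and 568, 567 and 585 FPKM in the Sham libraries. GPI stood above both other groups, and GMTT above Sham, at 2.65 (SE 0.04), -2.49 (SE 0.04) and 0.17 (SE 0.04) for GPI over Sham, GMTT over GPI and GMTT over Sham. Atp5f1e, the epsilon subunit, averaged 334 ± 15.2 FPKM in GMTT, 1998 ± 104 in GPI and 237 ± 17.4 in Sham (SD, n = 3), and Atp5f1a, the alpha subunit, 298 ± 14.1 in GMTT, 1842 ± 69.5 in GPI and 212 ± 10.4 in Sham. Of the genes for subunit c of the rotor ring, which encode the same mature protein, Atp5mc3 was at 3.11 (SE 0.06) and Atp5mc2 at 1.69 (SE 0.07) in GPI against Sham. The FPKM ratio of Atp5mc3 to Atp5mc2 was 0.679 ± 0.0551 in GMTT, 1.36 ± 0.0103 in GPI and 0.510 ± 0.00743 in Sham (SD, n = 3; exact permutation p = 0.1 for each pair of groups). By FPKM Atp5mc3 was thus above Atp5mc2 only in GPI among these groups. FPKM divides by gene length, 1348 bases for Atp5mc3 and 658 for Atp5mc2. In counts Atp5mc3 was above Atp5mc2 in every library, with 2035, 2259 and 2485 against 1923, 2197 and 2372 in Sham. Which of them was more abundant in GMTT and Sham is therefore not settled, and Atp5mc1 was not among the members. Atp5mk-ps2 was at 3.11 (SE 0.14), and reads of a pseudogene symbol and its parent gene cannot be told apart with certainty.

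Atp5if1 (chromosome 5, 144738950 to 144742668, minus strand), which stops the synthase from running backwards and in zebrafish is needed for haem synthesis in red cell precursors, went against its complex. It had 242, 237 and 238 FPKM in the GMTT libraries, 81.2, 87.9 and 89.6 FPKM in the GPI libraries and 334, 369 and 395 FPKM in the Sham libraries. GPI was lowest and Sham highest, without overlap, at -2.12 (SE 0.06) in GPI against Sham, 1.47 (SE 0.06) in GMTT against GPI and -0.64 (SE 0.05) in GMTT against Sham (edgeR adjusted p = 5.47e-25, 2.12e-20 and 6.43e-12). At the median the erythroid genes ran in the same order of groups, at -9.17, 8.11 and -0.89 in these comparisons. Of the 15, 1 was higher in GPI against Sham and 1 lower in GMTT against GPI. The 10 proliferation genes ran in that order too, at medians of -6.17, 5.71 and -0.52. The part of either list in the Atp5if1 difference was not tested. Among the 21 genes not called in GMTT against Sham, the largest differences by size were those of Atp5mpl-ps1 (0.46, SE 0.24), Ndufs5-ps2 (0.36, SE 0.21) and Ndufa3 (-0.33, SE 0.18).

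Genes that supply and build the chain moved mostly with it in GPI against Sham, beside the higher muscle share. All 18 enzymes of the tricarboxylic acid cycle, which feeds NADH to complex I, were higher at a median log2 fold change of 3.23, with Sucla2 at 4.31 (SE 0.05) and Idh2 at 3.71 (SE 0.05). Of 36 tested assembly factors, which help the complexes form, 34 were higher at a median of 1.74, led by Ecsit (3.42, SE 0.07), Cox10 (3.24, SE 0.07) and Tmem70 (2.98, SE 0.06). Uqcc3 (-0.05, SE 0.10) and Pet100 (0.01, SE 0.10) were not called. Over all genes tested, 40.1% were higher and 48.1% lower in GPI than in Sham with TMM scaling. With library sizes alone 23 of the 36 were higher and 5 lower in GPI than in Sham, and 5 were higher and 22 lower in GMTT than in GPI. Of all 15936 genes, 3521 were then higher and 11210 lower in GPI than in Sham. In GMTT against GPI 11503 of all genes were higher and 3016 lower. Coa3 and Surf1 were listed at 0 in all libraries. In GMTT against GPI 34 of the 36 assembly factors and all 18 cycle enzymes were lower with TMM scaling. Over all genes tested, 40.2% were then lower and 45.7% higher. In GMTT against Sham 15 assembly factors were higher, 1 lower and 20 not called, and 16 cycle enzymes were higher and 2 not called. Among all genes 29.5% were higher and 28.3% lower in that comparison.

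Of 20 tested carriers of electrons, adenine nucleotides and phosphate, 19 were higher in GPI than in Sham and 1 lower. Over all genes tested, 40.1% were higher and 48.1% lower in that comparison. Ckmt2, the sarcomeric mitochondrial creatine kinase, averaged 63.8 ± 1.61 FPKM in GMTT, 1009 ± 27.0 in GPI and 7.14 ± 0.438 in Sham (SD, n = 3), and Coq8a, of ubiquinone synthesis, 51.4 ± 3.10 in GMTT, 861 ± 25.8 in GPI and 8.79 ± 0.594 in Sham. The carrier that exchanges ADP for ATP divided by isoform. Slc25a4, the heart and muscle form, was at 5.30 (SE 0.05), -3.27 (SE 0.05) and 2.03 (SE 0.05) in GPI over Sham, GMTT over GPI and GMTT over Sham, and Slc25a5, the form of dividing cells, was the lower gene at -1.48 (SE 0.06). Cycs, cytochrome c, was at 3.32 (SE 0.07) in GPI against Sham. The 10 proliferation genes were all lower in GPI than in Sham, at a median of -6.17, and their part was not tested.

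Genes that transcribe and keep mitochondrial DNA moved less than the genes it encodes. Of 22, 18 were higher and 4 lower in GPI than in Sham, at a median of 0.82 with TMM scaling. Among all genes 40.1% were higher and 48.1% lower. With library sizes alone 7 of the 22 were higher and 12 lower, at a median of -0.27. Of all 15936 genes, 3521 were then higher and 11210 lower, at a median of -1.28. Tefm, the elongation factor, was at 2.40 (SE 0.11), Lrpprc, which stabilises mitochondrial messengers, at 2.38 (SE 0.05) and Tfb2m, which opens the promoters, at 1.98 (SE 0.08). Tfam, which packages the DNA, was at 1.04 (SE 0.06) with TMM scaling and at -0.06, not called, with library sizes alone. The 4 lower genes were those of the mitochondrial DNA polymerase, Polg (-0.60) and Polg2 (-0.89), and of the transcription factors Mterf1 (-0.66) and Mterf3 (-0.77).

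Of 16 regulators of mitochondrial biogenesis, 10 were higher and 6 lower in GPI than in Sham, where 40.1% of all genes were higher and 48.1% lower. The direction held under each scaling tried. Ppargc1a, the coactivator PGC-1α, averaged 0.586 ± 0.0813 FPKM in GMTT, 15.7 ± 1.16 in GPI and 0.0875 ± 0.0122 in Sham (SD, n = 3), and GPI lay above Sham by 7.42 (SE 0.15) on the log2 scale. The nuclear receptor Esrrg was at 7.35 (SE 0.17), the muscle regulator Perm1 at 6.95 (SE 0.08), and Prkaa2, a catalytic subunit of AMP-activated kinase, at 6.53 (SE 0.09). Ppara (4.28, SE 0.15), Ppargc1b (2.94, SE 0.12), Esrra (2.62, SE 0.19), Ppard (2.35, SE 0.08) and the deacetylase Sirt3 (1.39, SE 0.10) followed. Esrrb averaged 0.161 ± 0.0249 FPKM in GMTT, 1.22 ± 0.0847 in GPI and 0.00986 ± 0.0171 in Sham (SD, n = 3), too low in Sham for a fold to be read.

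Lower were the transcription factors Nrf1 (-1.98, SE 0.07), Gabpb1 (-1.11, SE 0.08), Yy1 (-0.85, SE 0.06) and Gabpa (-0.51, SE 0.06), the deacetylase Sirt1 (-0.79, SE 0.07) and the coactivator Pprc1 (-0.44, SE 0.07). Nrf1 averaged 6.19 ± 0.194 FPKM in GMTT, 2.13 ± 0.181 in GPI and 8.19 ± 0.118 in Sham (SD, n = 3). Nuclear respiratory genes were thus higher in GPI beside lower transcripts of Nrf1 and of both GABP subunits, factors that can bind at such genes. In GMTT against GPI the 10 were lower and the 6 higher, where 40.2% of all genes were lower and 45.7% higher. In GMTT against Sham 9 of the 16 were higher, 5 lower and 2 not called, with Ppargc1a at 2.68 (SE 0.28) and Nrf1 at -0.43 (SE 0.05). Among all genes 29.5% were higher and 28.3% lower in that comparison.

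**Figure D5:**
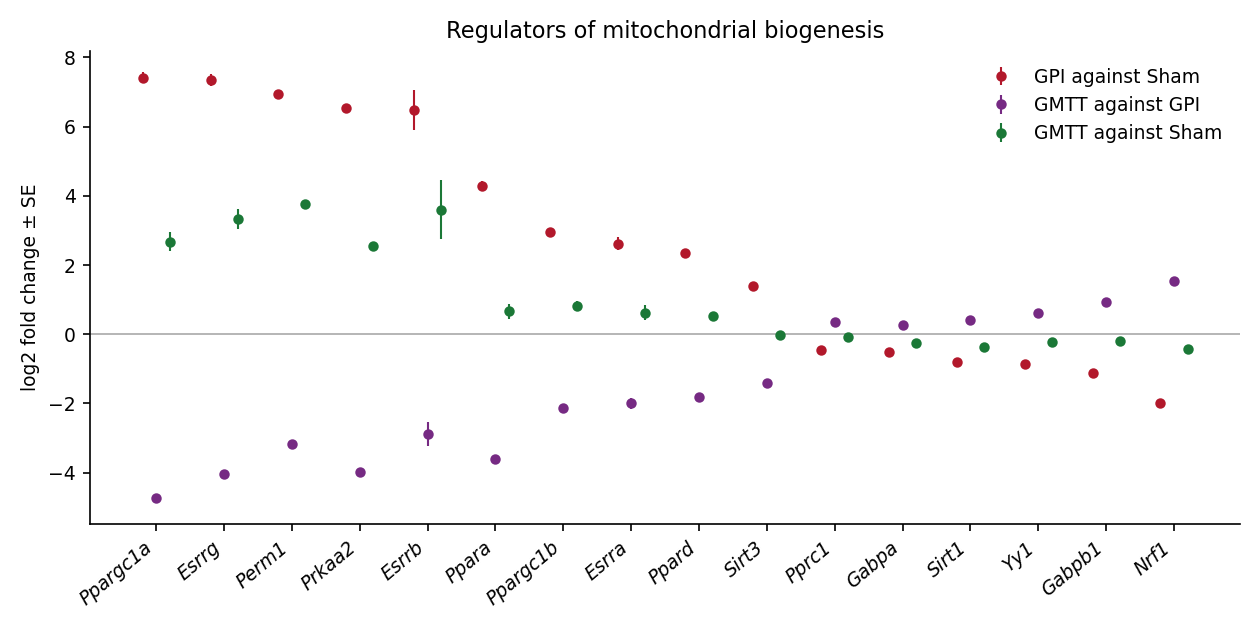
Log2 fold change with its standard error (edgeR with TMM scaling) of 16 regulators of mitochondrial biogenesis in GPI over Sham, GMTT over GPI and GMTT over Sham. Genes are ordered by GPI against Sham: 10 lie above 0, from Ppargc1a to Sirt3, and 6 lie below, down to Nrf1, and Esrrb rests on Sham values near 0.

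Of 17 tested genes for fusion, fission and cristae, 15 were higher in GPI than in Sham at a median of 1.48, or 11 higher and 5 lower with library sizes alone. Of all 15936 genes, 40.1% were higher and 48.1% lower with TMM scaling, and 3521 were higher and 11210 lower with library sizes alone. Mief2 was at 3.32 (SE 0.06), the fusion gene Mfn2 at 2.79 (SE 0.05) and Chchd3, of the cristae junctions, at 2.75 (SE 0.05). The uncoupling proteins, carriers of the inner membrane, went apart. Ucp2 averaged 457 ± 41.5 FPKM in GMTT, 12.4 ± 1.30 in GPI and 636 ± 33.3 in Sham, while Ucp3, the muscle form, averaged 3.38 ± 0.387 in GMTT, 18.7 ± 0.846 in GPI and 0.855 ± 0.0826 in Sham. Ucp1, the uncoupling protein of brown fat, was listed at 0 in GMTT and averaged 13.1 ± 0.309 FPKM in GPI and 0.0133 ± 0.0230 in Sham (SD, n = 3). The 12 adipocyte genes took 0.0581% to 0.0600% of counts in GMTT, 0.182% to 0.186% in GPI and 0.0299% to 0.0320% in Sham, and their part in the Ucp1 level was not tested.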

How the data were processed

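The authors deposited a table of raw gene counts and a table of FPKM. TRIzol RNA went through poly(A) selection and dUTP strand-specific library preparation, per the labels' protocols. The submitters' processing notes name the build mRatBN7.2. No source used here names the aligner, the counter, its strand setting or how it treated reads with several matches. Dividing each count by gene length and by 1 constant for its library gave the deposited FPKM; the constant was 0.598 to 0.608 of the library total in GPI and 1.29 to 1.32 in the others, so FPKM carries a scaling between libraries.

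Counts of all 9 libraries were fitted in 1 model of 3 groups with edgeR 4.0.16 (R 4.3.3; TMM scaling, robust quasi-likelihood F test, 2-sided), after edgeR's filter at a minimum count of 10, which left 15936 genes. Calls were made where the p adjusted by Benjamini-Hochberg over these genes was below 0.05. Of the 10 members left out, 6 had no count. The scripts were tested on simulated counts, and the biological coefficient of variation had a median of 5.09% across genes. Ratios were taken from FPKM within each library and compared by 2-sided exact permutation tests (SciPy 1.17.1). Same-strand overlap with another row touched 12 members and other-strand overlap 31.

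Members and gene lists were chosen with earlier results of these data known. Named were the markers, the isoform pairs, the 2 largest and 2 smallest log2 fold changes in GPI against Sham within each complex and among the mitochondrial genes, the 3 nuclear genes with the highest FPKM, up to 5 members against the majority, every biogenesis regulator and up to 3 genes of each other list by p, with cell-type lists given by their share. Others (Ndufb9, Tfam, Cycs, Slc25a5, Uqcc3, Pet100, Polg, Polg2, Mterf1, Mterf3, and members given with a role or as the end of a range) were named after their values were seen. The ratio of Mt-nd genes to the other mitochondrial genes, that of core to supernumerary subunits, that of Ndufa10l1 to Ndufa10 and those by complex were added after seeing the data. Settings tried in place of these were scaling by median of ratios, library sizes only, scaling without mitochondrial, muscle and erythroid list genes, DESeq2 1.42.0, no low-count filter, fits of 6 libraries, a replicate block, limma 3.58.1 on log2(FPKM + 1) and log2(FPKM + 0.1), and leaving out each library. Figures were drawn with matplotlib 3.10.9.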

Additional observations from a re-analysis of the deposited data

How the results depend on the processing

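The counts of members called kept to within 1.5 times of those reported under all alternatives: 88 to 94 higher and 2 to 3 lower in GPI against Sham, 2 to 3 higher and 88 to 93 lower in GMTT against GPI, and 70 to 77 higher and 2 to 3 lower in GMTT against Sham. The count tested was 95, except that it was 90 without the 5 pseudogene-symbol members, which gave the lowest counts of 88, and 99 without the low-count filter, which gave 94. Leaving out 1 library gave 93 and 2, 2 and 93, and 65 to 76 and 2 to 3, with 3 lower only without a GPI library. The mitochondrial to nuclear log2 ratio differed by 1.11 to 1.24, -0.90 to -0.78 and 0.28 to 0.41 in these comparisons without 1 library, and by 1.13 to 1.35, -1.03 to -0.78 and 0.31 to 0.35 under the other settings. In GMTT against Sham the Cox4i2 to Cox4i1 ratio (-0.23 to 0.046 without 1 library) and the Cox7a2l to Cox7a2 ratio (-0.050 to 0.086) changed sign, as did the single-gene log2 fold changes of Cox4i2 (-0.056 to 0.29), Ndufv3-ps1 (-0.28 to 0.081) and Sirt3 (-0.11 to 0.057), none of them called. With library sizes alone, which moves the median of all genes from -0.19 to -1.28 in GPI against Sham, Cox7a2l was at -0.62 there and at 0.71 in GMTT against GPI, Tfam at -0.0566 and Pet100 at -1.08. Sirt3 was at 0.015 in GMTT against Sham with median-of-ratios scaling, 0.015 with DESeq2, 0.0056 with limma on log2(FPKM + 1) and 0.0066 on log2(FPKM + 0.1). In GPI against Sham, Uqcc3 was at 0.014 with median-of-ratios scaling, 0.012 with DESeq2, 0.0027 in a fit of 6 libraries and -0.12 to 0.062 without 1 library, and Pet100 at -0.013 without the low-count filter and -0.024 to 0.047 without 1 library. In GMTT against Sham, calls of 11 members ended without 1 library or under another setting, and among the genes named here those of Ndufb9, Uqcrh, Uqcrq, Cox7a1, Ndufa4l2, Ppara, Esrra, Gabpb1 and Mt-nd3 did. With library sizes alone the calls of Cox4i2 in GPI against Sham (0.43) and GMTT against GPI (-0.26) and of Ndufa3 in GPI against Sham (0.11) ended. The cause of these changes was not tested. The replicate numbers do not pair the libraries: same-numbered libraries' deviations correlated at -0.146 to 0.0614, and with the number as a replicate block 93 were higher and 2 lower in GPI against Sham, 2 and 93 in GMTT against GPI, and 70 and 2 in GMTT against Sham. With 3 libraries per group the ratios could not reach p below 0.1, and Cox7a1, Cox4i2 and Ndufa4l2 rest on few counts.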
